A study of Mus musculus with 6 samples.

Results

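Lyve1, Folr2, F13a1, Fcrls, Cbr2, Cd163, Vsig4, Mrc1 and Pf4 are 9 genes that mouse tissue macrophages of the resident type express. They were followed through tumour macrophages and monocytes as 9 of the 30406 genes that all 6 libraries measured. They were chosen because most of them were low in the libraries in which host and marrow both lacked Mtdh, so that difference in macrophages describes the choice and carries no test here. Each gene was found by its symbol and joined between libraries by its Ensembl identifier, and all 9 were present in every library.

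The immune cells came from mammary tumours that Py8119 cells, a mouse mammary tumour line, formed in female mice. Mtdh encodes metadherin, a protein studied for its role in breast cancer. One library each was made from intact Mtdh knockout (KO) mice, from intact wild-type (WT) mice, and from irradiated mice given donor marrow. The transplanted libraries are written with the marrow donor first and the host second, as KO-to-KO, KO-to-WT, WT-to-KO and WT-to-WT, and the legends of the plots spell them out as KO marrow, KO host and so on. Transplanted mice received the tumour cells 8 weeks after the donor marrow, tumours were taken 4 weeks after injection in all 6 groups, and about 15000 live CD45+ cells were loaded per library on the 10x 3′ v3.1 system. The strain, the age, the kind of knockout allele, the number of mice behind a library and how many host macrophages outlived irradiation are not given in the labels. Intact KO and KO-to-KO are called the both-KO libraries below, and their values are given in that order.

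Resident-type macrophages settle in tissues, some before birth and some from blood monocytes, and keep themselves by local division or by slow replacement. They are known for taking up debris, haemoglobin, hyaluronan and opsonised particles through scavenger receptors, and for lying along vessels and ducts. In tumours they stand beside macrophages that arose recently from Ly6C-high monocytes and often carry an interferon programme. The transcription factor PU.1 is needed in all macrophages, and MAF is a factor that resident-type programmes are known to use.

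All 9 are protein-coding genes that lie on different chromosomes except for a pair on chromosome 7. On GRCm38 with the GENCODE vM21 annotation, Lyve1 spans chr7:110850607-110863239 on the minus strand in 6 exons and Folr2 spans chr7:101839988-101857194 on the minus strand, also in 6 exons. F13a1 lies at chr13:36867178-37050244 (minus strand), Fcrls at chr3:87250758-87263738 (minus strand) and Cbr2 at chr11:120729489-120732114 (minus strand). Cd163 lies at chr6:124304656-124330527 (plus strand), Vsig4 at chrX:96247203-96293438 (minus strand), Mrc1 at chr2:14229392-14332057 (plus strand) and Pf4 at chr5:90772435-90773383 (plus strand). Mrc1 holds the microRNA gene Mir511 on its own strand, whereas no other member overlapped an annotated gene on its strand. F13a1 and Folr2 each overlap predicted genes on the opposite strand, and the sources used here do not say whether counting used strand.

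Because the genes were low together, their promoters were read from RefSeq windows that run from 250 bases before to 50 bases after each start site on GRCm38.p6. Windows were matched for 8 of the 9 members, Lyve1 being the exception, and alternative starts of Folr2 and F13a1 made 10 windows in all. The PU.1 core GAGGAA was searched on both strands and stood in 7 of the 10 windows, from 6 members, whereas 28.3% of all 32807 windows of this length hold it. The MAF half-site TGCTGA, searched in the same way, stood in 5 windows from 4 members, against 19.5% of all windows. The interferon-gamma-activated site TTCNNNGAA was in 0 of the 10 windows, against 8.29% of all. These matches describe letters in the windows and say nothing about binding. The 3 windows that hold both the PU.1 core and the MAF half-site are shown because they are the only ones with both, 5′ to 3′ on the gene's strand, with each match in capitals (TTCCTC and TCAGCA are the same motifs read from the other strand). They are Fcrls at chr3:87263475-87263774, Cbr2 at chr11:120731972-120732271 and Vsig4 at chrX:96293389-96293688, all on the minus strand.
Fcrls: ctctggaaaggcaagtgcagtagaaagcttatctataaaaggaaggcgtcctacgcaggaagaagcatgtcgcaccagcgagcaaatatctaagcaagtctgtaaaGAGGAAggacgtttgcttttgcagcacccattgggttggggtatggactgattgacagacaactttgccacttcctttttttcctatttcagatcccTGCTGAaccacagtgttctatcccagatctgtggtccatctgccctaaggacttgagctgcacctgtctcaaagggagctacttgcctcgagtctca
Cbr2: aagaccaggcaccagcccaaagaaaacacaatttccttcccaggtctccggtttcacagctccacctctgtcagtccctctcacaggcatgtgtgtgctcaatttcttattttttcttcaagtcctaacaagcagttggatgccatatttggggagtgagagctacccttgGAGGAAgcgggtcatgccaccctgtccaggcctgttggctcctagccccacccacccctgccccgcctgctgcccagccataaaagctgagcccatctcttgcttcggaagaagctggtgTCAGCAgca
Vsig4: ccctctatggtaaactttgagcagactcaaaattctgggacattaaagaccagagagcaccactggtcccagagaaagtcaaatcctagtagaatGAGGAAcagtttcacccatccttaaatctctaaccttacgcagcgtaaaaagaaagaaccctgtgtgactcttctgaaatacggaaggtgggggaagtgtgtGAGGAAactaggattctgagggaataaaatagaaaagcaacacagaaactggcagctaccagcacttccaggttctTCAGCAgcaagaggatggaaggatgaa
In the Fcrls window the PU.1 core starts 144 bases before the start site and the MAF half-site 47 bases before it. The Cbr2 window holds the PU.1 core 79 bases upstream, and its MAF half-site lies within the transcribed part, as does that of Vsig4. These positions count from the RefSeq start sites. The GENCODE genes of Fcrls and Cbr2 given above begin further upstream, so by that annotation all their matches shown lie within the gene.

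Macrophages and monocytes were selected by marker counts that include none of the 9 genes, after each cell was thinned to 2000 UMIs (unique molecular identifiers, each counting 1 captured RNA). Macrophages had at least 4 UMIs of C1qa, C1qb and C1qc, the complement C1q chains, and at least 2 of Adgre1, Csf1r, Mertk, Cd68 and Ms4a7. Monocytes had at least 3 UMIs over a monocyte list that includes Ly6c2, Plac8 and Ccr2, at least 2 of Csf1r, Cd68, Ms4a6c, Fn1 and Lyz2, and at most 2 of C1q. Of 37988 cells kept, 21064 were macrophages, with 3018 to 4740 per library and a median of 14123 to 19779 UMIs per cell. Only 652 were monocytes, with 38 to 280 per library and median depths of 6316 to 11833 UMIs, and 2572 T cells served as a gauge of free RNA. The both-KO libraries held 156 and 280 monocytes, 2.36% and 3.66% of their cells, against 0.702% to 1.38% in the others. Macrophages made up 45.7% and 40.2% of both-KO cells against 54.9% to 70.8%. The part of this composition in the levels was not tested. Pairs of libraries shared between 8 and 25 cell barcodes, at most 0.348% of the smaller library. Intact libraries were processed with another version of Cell Ranger than transplanted ones, so transplantation and software cannot be told apart. Files of intact libraries list 32285 genes and those of transplanted libraries 31053, and only genes shared by all libraries were used.

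Mtdh itself followed the label of the marrow. In macrophages it stood at 16.1 CPM (its UMIs per 1000000 UMIs of the class) in intact KO, 13.01 in KO-to-KO and 19.9 in KO-to-WT. It reached 111 CPM in intact WT, 109 in WT-to-KO and 113 in WT-to-WT. KO-to-WT therefore pairs Mtdh-low macrophages with a WT host.

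Fcrls and Vsig4, the surface receptors for recognition, were low in both-KO macrophages and similar in the 4 other libraries. Fcrls encodes an Fc receptor-like protein with a scavenger receptor domain that marks mouse resident-type macrophages and microglia. Its level was 186 CPM in intact KO and 137 in KO-to-KO, against 1188 in intact WT, 869 in KO-to-WT, 1003 in WT-to-KO and 1035 in WT-to-WT. The highest both-KO library thus lay far below the lowest of the others, and the 4 others lay within 869 to 1188 CPM. Vsig4 encodes the complement receptor CRIg, which takes up C3b-coated particles. It stood at 1.02 CPM in intact KO, and 3 UMIs among 45732138 in KO-to-KO gave 0.0656 CPM (95% exact Poisson interval 0.0135 to 0.192). The other libraries held 13.7 CPM in intact WT, 14.9 in KO-to-WT, 11.6 in WT-to-KO and 13.6 in WT-to-WT. Poisson intervals of intact WT, KO-to-WT and WT-to-WT overlapped, so their order was not resolved. Such intervals cover counting error only and not the spread between mice, which 1 library per group cannot show.

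Cbr2 and F13a1, the enzymes of the group, showed the same order. Cbr2 encodes carbonyl reductase 2, which reduces carbonyl compounds with NADPH. Its level was 44.0 CPM in intact KO and 52.5 in KO-to-KO, then 258 in WT-to-KO, 350 in KO-to-WT, 355 in WT-to-WT and 366 in intact WT. F13a1 encodes the A subunit of coagulation factor XIII, a transglutaminase that cross-links fibrin. It was 111 CPM in intact KO and 163 in KO-to-KO, then 521 in WT-to-KO, 632 in KO-to-WT, 760 in WT-to-WT and 1190 in intact WT. Outside the both-KO pair F13a1 ran from 521 to 1190 CPM, and WT-to-KO was the lowest of those 4 libraries. Cbr2 also had its lowest value outside the pair in WT-to-KO.

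Folr2 and Mrc1, endocytic receptors that are abundant on resident-type macrophages, were low in both-KO macrophages by different amounts. Folr2 encodes folate receptor beta, and its level was 56.7 CPM in intact KO and 96.6 in KO-to-KO. In the others it was 272 in WT-to-KO, 278 in intact WT, 297 in KO-to-WT and 321 in WT-to-WT, so these 4 lay close together. Counting intervals of WT-to-KO and intact WT overlapped. Mrc1 encodes the mannose receptor CD206. It was 396 CPM in intact KO and 417 in KO-to-KO, against 692 in WT-to-KO, 699 in KO-to-WT, 774 in WT-to-WT and 1036 in intact WT. The Mrc1 groups did not overlap, but its gap was smaller than that of Folr2, Fcrls, Cbr2 or F13a1 in each of the 3 pairs with a both-KO library described below.

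Cd163 and Lyve1 were rare transcripts, and Lyve1 did not separate the libraries. Cd163 encodes the scavenger receptor for haemoglobin bound to haptoglobin. It was 0.766 CPM in intact KO and 3.89 in KO-to-KO, against 4.90 in WT-to-KO, 9.79 in KO-to-WT, 11.3 in WT-to-WT and 14.7 in intact WT. The exact Poisson intervals of KO-to-KO, 3.34 to 4.51 CPM, and of WT-to-KO, 4.43 to 5.41, overlapped, so counting error alone blurs the division there. Lyve1 encodes a hyaluronan receptor of perivascular macrophages and lymphatic vessels. Its level was 2.27 CPM in intact KO, 7.79 in intact WT, 8.66 in WT-to-KO, 10.4 in KO-to-KO, 22.0 in KO-to-WT and 32.6 in WT-to-WT. Lyve1 in KO-to-KO was above intact WT and WT-to-KO, and the WT-host chimeras were the high ones.

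Pf4, the chemokine CXCL4, which platelets store and macrophages also express, was highest in the WT-host chimeras. It measured 349 CPM in intact KO and 764 in KO-to-KO, then 860 in intact WT, 1095 in WT-to-KO, 1451 in KO-to-WT and 1633 in WT-to-WT. The both-KO libraries were the lowest, yet KO-to-KO lay nearer to intact WT than to intact KO. A sum over 6 platelet genes moved in the same direction in these cells. It was 2.93 and 2.06 CPM in the both-KO libraries and 3.08 to 8.08 in the others. Ppbp made up most of that sum outside the both-KO pair, at 2.17 to 6.78 CPM against 1.28 and 1.18 within it. Treml1 and Itga2b did not separate the libraries. Treml1 was 0.900 and 0.437 CPM against 0.487 to 1.47, and Itga2b 0.733 and 0.415 against 0.182 to 0.513. Gp9, Gp1bb and Gp1ba did not exceed 0.0614 CPM in any library. The part of platelets in the Pf4 difference was not tested.

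In all, 8 of the 9 genes had both both-KO libraries below each of the 4 others, Lyve1 being the exception. Among the 11386 genes with a mean of at least 1 CPM, 21.8% did so, and because the genes were picked for this contrast nothing is read from the count. Cd163 lay just inside that division, whereas Lyve1 in KO-to-KO stood above intact WT and WT-to-KO.

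**Figure D1:**
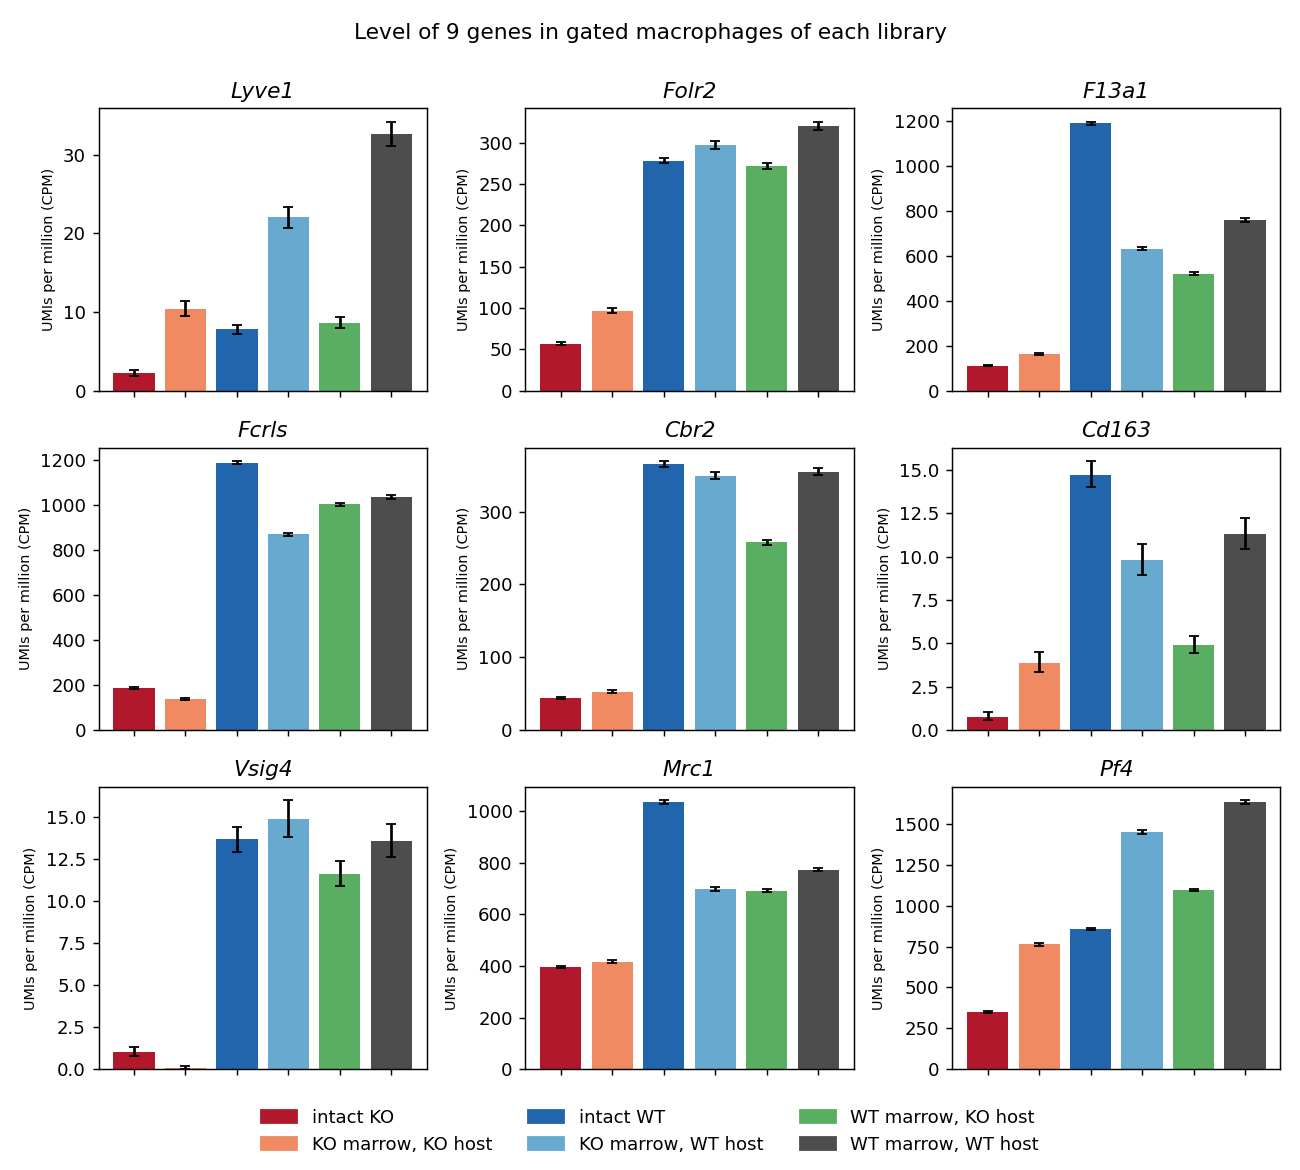
Level of each gene in macrophages (vertical axis, CPM, counts scaled to 1000000 UMIs of a library's macrophages, a separate scale for each gene) in the 6 libraries (bars), with 95% exact Poisson intervals that cover counting error only. The both-KO libraries, the 2 bars on the left, are the lowest for every gene except Lyve1, for which KO-to-KO stands above intact WT and WT-to-KO.

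Libraries were then set side by side in pairs that differ in the host, in the marrow or in both. Ratios were taken after adding 5 CPM to both levels, which understates the change of the rare genes Lyve1, Cd163 and Vsig4. With no replicate in either arm, each pair compares 2 libraries and has no test. The genes were picked for being low in the both-KO libraries, so the counts and medians over these pairs describe that choice. Intact KO against intact WT was lower by at least 2-fold for 8 of the 9 genes, with Lyve1 at -0.82 on the log2 scale, where 1.63% of the 8992 genes with a mean of at least 5 CPM were. On this scale F13a1 was 10.3-fold lower, Cbr2 7.56-fold and Fcrls 6.24-fold. The order depends on the added 5 CPM, since without it Cd163 was 19.2-fold lower, Vsig4 13.5-fold and F13a1 10.7-fold.

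KO-to-KO against KO-to-WT, which differ in the host, was lower by at least 2-fold for 5 of 9 genes, where 0.767% of genes were. KO-to-KO against WT-to-KO, which differ in the marrow, was also lower for 5 of 9, where 0.956% of genes were. These were Folr2, F13a1, Fcrls, Cbr2 and Vsig4 in both. Both pairs share the KO-to-KO library, so they are not independent. Fcrls was 6.14-fold lower in the first and 7.08-fold lower in the second, Cbr2 6.17-fold and 4.57-fold, and F13a1 3.80-fold and 3.14-fold. Mrc1 was lower by 0.74 and 0.73 on the log2 scale and did not reach 2-fold, nor did Lyve1, Cd163 or Pf4. When macrophages were taken as whole Leiden clusters instead of by marker counts, 8 of 9 reached 2-fold in the first of these pairs.

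With WT on the other side the same exchanges moved few of the genes. The choice of the genes favours this pattern, so nothing is read from the difference between the pairs. WT-to-KO against WT-to-WT was lower by at least 2-fold for 1 of 9, Lyve1, at -1.46 on the log2 scale, where 0.167% of all genes were. KO-to-WT against WT-to-WT was lower for 0 of 9, where 0.0334% of genes were. Median log2 ratios over the 9 genes were -1.78 in the intact pair, -1.57 and -1.45 in the pairs with KO-to-KO, -0.46 for the KO host under WT marrow and -0.15 for KO marrow in the WT host. Over all genes the same medians were -0.10, -0.05, -0.06, 0.00 and -0.02. The median for the KO host under WT marrow came with F13a1 at -0.54, Pf4 at -0.57, Cd163 at -0.72 and Cbr2 at -0.46, while Fcrls was at -0.04.

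**Figure D2:**
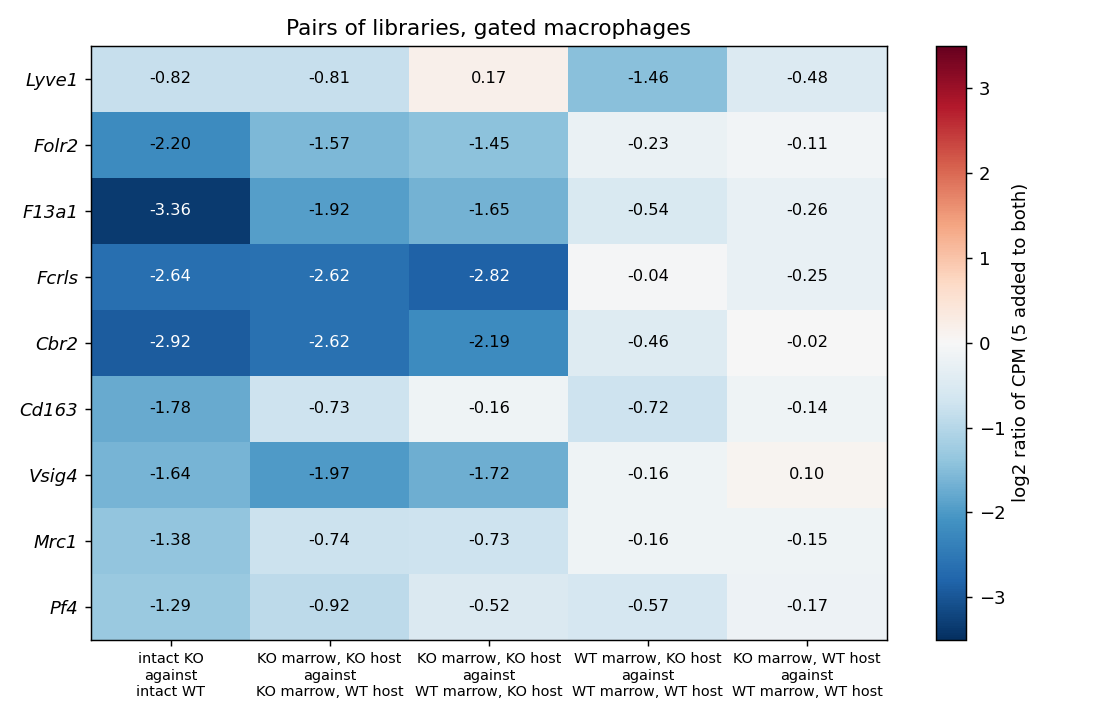
Log2 ratio of CPM (colour and printed value, 5 CPM added to both levels) of each gene (rows) between the libraries named under each column, in macrophages. The 3 columns on the left, in which a both-KO library comes first, hold the dark cells down to -3.36 for F13a1, and the pair on the right, KO-to-WT against WT-to-WT, stays between -0.48 and 0.10.

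A level has 2 components, the share of cells with a UMI and the UMIs in each such cell. To compare them at equal depth, cells were thinned to 5000 UMIs, which left 2913 to 4664 macrophages per library and dropped 45 to 161. F13a1 was detected in 16.6% of macrophages of intact KO and 27.1% of KO-to-KO, against 64.5% in WT-to-KO, 71.7% in KO-to-WT, 79.3% in WT-to-WT and 83.9% in intact WT. Cells with an F13a1 UMI held 3.38 and 3.01 of them on average in the both-KO libraries and 3.91 to 7.02 in the others. Fcrls was detected in 37.7% and 31.2% of both-KO macrophages and in 77.6% to 89.1% of the others, with 2.40 and 2.27 UMIs per such cell against 5.57 to 6.72. For both genes, then, the share and the amount per positive cell were lower.

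Cbr2 differed mainly in the share of cells. It was detected in 10.4% and 10.1% of both-KO macrophages and in 42.6% to 55.5% of the others, with 2.10 and 2.77 UMIs per positive cell against 2.72 to 3.41, ranges that overlap. Folr2 was detected in 17.4% and 23.7% against 56.6% to 61.4%. Mrc1 remained widespread, in 67.7% and 67.5% of both-KO macrophages against 83.7% to 91.9%, and its UMIs per positive cell were 2.80 and 3.06 against 4.00 to 5.59. Pf4 was detected in 50.02% of intact KO macrophages and 66.4% of KO-to-KO, against 83.8% to 89.9%.

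The rare genes were carried by few cells. Vsig4 was detected in 6 of 2973 thinned macrophages of intact KO and in 0 of 2913 of KO-to-KO, which at this depth allows a share with a UMI of up to 0.103% (3 cells of the total). Without thinning, 3 of 3074 macrophages of KO-to-KO held a Vsig4 UMI. In the other libraries 2.04% to 2.43% of macrophages had a Vsig4 UMI, with 2.36 to 3.32 per cell. Lyve1 was detected in 0.235% of intact KO macrophages and in 1.61% of KO-to-KO, against 1.20% to 4.57% in the others. Without thinning, the Lyve1 UMIs of KO-to-KO came from 70 of 3074 macrophages and those of intact KO from 20 of 3018. Cd163 was detected in 0.303% and 0.858% of both-KO macrophages and in 1.86% to 4.97% of the others.

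**Figure D3:**
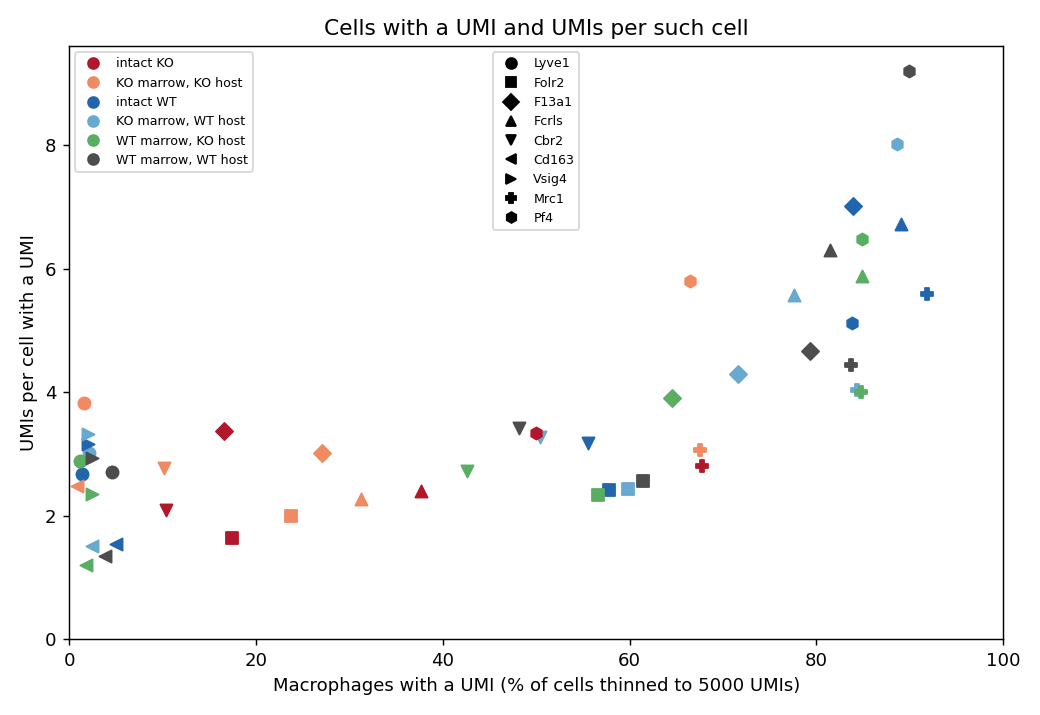
Share of macrophages with a UMI of a gene (horizontal axis, % of cells thinned to 5000 UMIs) against the mean UMIs per such cell (vertical axis), with a symbol for each gene and a colour for each library. Points with fewer than 20 such cells are left out. F13a1 and Fcrls of the both-KO libraries lie to the left of and below those of the other libraries, while Cbr2 differs mainly along the horizontal axis.

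For each of the 36 pairs of genes an odds ratio of co-detection was taken in thinned macrophages, with 0.5 added to each count. It describes cells that share a library and so has no p-value. The median over pairs was 5.05 in intact KO, 4.05 in intact WT, 3.89 in KO-to-KO, 3.51 in KO-to-WT, 3.99 in WT-to-KO and 3.502 in WT-to-WT. The both-KO values rest in part on genes with few or no positive cells: 2 pairs of intact KO and all 8 Vsig4 pairs of KO-to-KO had 0 cells with both genes, so that their odds ratios come from the added 0.5 alone. Pairs in which each gene had a UMI in at least 20 cells were therefore also taken alone, a step added after the data were seen. In intact KO 15 pairs remained, all above 1, with a median of 2.94, and in KO-to-KO 28 remained, all above 1, with a median of 4.59. The 4 other libraries kept all 36 pairs. All of these exceeded 1 in intact WT, WT-to-KO and WT-to-WT and 34 did in KO-to-WT, where the exceptions included Vsig4. Among pairs with enough cells the genes thus tended to be found in the same cells, and nothing is shown for Vsig4 in KO-to-KO.

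At least 3 of the 9 genes were detected in 32.6% of thinned macrophages of intact KO (95% Clopper-Pearson interval 30.9 to 34.3) and in 39.2% of KO-to-KO (37.4 to 41.0). The share was 84.2% in WT-to-KO, 85.2% in KO-to-WT, 86.9% in WT-to-WT and 90.7% in intact WT. Without thinning these shares were 61.6% and 61.03% in the both-KO libraries and 94.8% to 98.1% in the others. A macrophage held a mean of 2.01 of the genes in intact KO and 2.29 in KO-to-KO, and 4.24 to 4.71 in the others. None of the genes was found in 13.3% and 10.1% of both-KO macrophages, against 0.515% to 1.26%. Cells with many of the genes were still present where host and marrow were KO, and 53 macrophages of intact KO and 74 of KO-to-KO held 6 of them.

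**Figure D4:**
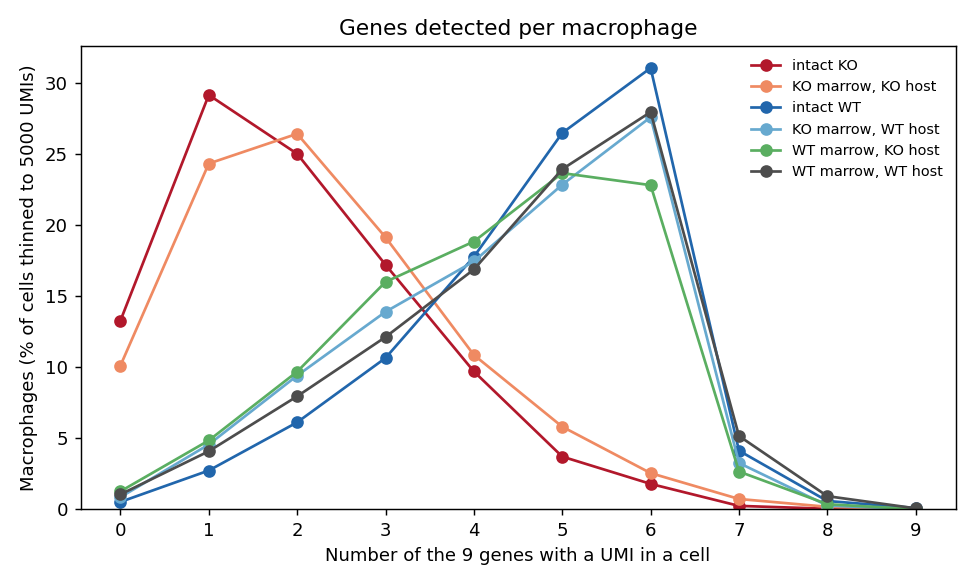
Number of the 9 genes with a UMI in a macrophage thinned to 5000 UMIs (horizontal axis) and the share of macrophages with that number (vertical axis, %), with a line for each library. The both-KO libraries peak at 1 and 2 genes and the 4 others at 5 or 6.

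Macrophages of the both-KO libraries more often carried Cxcl9, an interferon-gamma-induced chemokine: 58.3% of thinned macrophages in intact KO and 70.3% in KO-to-KO had a Cxcl9 UMI, against 1.47% to 11.1% in the others. Macrophages without a Cxcl9 UMI were therefore taken alone, a step added after the data were seen. Among these 1240 cells of intact KO and 865 of KO-to-KO, 6 of the 9 genes were below all 4 other libraries, where 17.8% of 11374 genes with a mean of at least 1 CPM were. These cells belong to the contrast that chose the genes, so nothing is read from the count. Fcrls stood at 209 and 146 CPM in them, against 883 to 1210, and Cbr2 at 53.7 and 82.8 against 242 to 357. F13a1 was 170 and 263 CPM against 529 to 1201. Lyve1, Cd163 and Pf4 overlapped with the other libraries in these cells, and Pf4 reached 1169 CPM in KO-to-KO against 878 in intact WT. The share with at least 3 of the genes was 35.5% and 41.6% in both-KO macrophages without a Cxcl9 UMI and 85.5% to 91.1% in those of the other libraries. A thinned cell without a Cxcl9 UMI can still express the gene. Taking such cells alone therefore does not remove all Cxcl9-expressing macrophages, and the cells left may differ in kind between libraries.

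Macrophages with a Cxcl9 UMI had lower F13a1 and Mrc1 than those without one in each of the 6 libraries. In intact KO, F13a1 was 71.0 CPM with Cxcl9 and 170 without, and Mrc1 was 317 and 468. In intact WT, where 296 macrophages had Cxcl9, F13a1 was 830 CPM with and 1201 without, and Mrc1 773 and 1044. No test was made within a library, since its cells are not replicates.

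Markers of other cells that a CD45+ sort could leave among the macrophages were summed in the same way. T, NK and B cell genes came to 21.8 and 30.6 CPM in both-KO macrophages and 7.95 to 14.4 in the others, dendritic cell genes to 15.6 and 9.18 against 2.02 to 3.99, and neutrophil genes to 72.4 and 37.8 against 20.5 to 28.3. All 7, 5 and 4 genes of these lists had UMIs, but not all followed the sums. Il1r2 made up most of the neutrophil sum, at 66.1 and 32.5 CPM against 14.1 to 18.6. Mmp8 was 6.03 and 3.76 CPM against 4.89 to 7.07, and Cxcr2 and Retnlg overlapped as well. In the lymphoid and dendritic lists Cd79a, Cd79b, Ms4a1, Flt3 and Zbtb46 overlapped, and the remaining genes were higher in both-KO macrophages. The part of such cells in the lower levels was not tested. C1q summed to 13059 and 15825 CPM in both-KO macrophages and to 14281 to 16067 in the others, ranges that overlap, whereas the second macrophage list was lower, at 1993 and 2091 CPM against 2540 to 2884. The monocyte genes Ly6c2, at 10.96 and 26.9 CPM against 1.57 to 2.22, and Plac8, at 15.9 and 70.8 against 2.76 to 7.05, were higher in both-KO macrophages, while Ccr2 was 181 and 160 against 194 to 249. The part of these markers in the lower levels was not tested either. The lymphatic endothelial marker Prox1 was at 0 to 0.0550 CPM in every library, and the sum over 5 endothelial genes, made up almost wholly by Pdpn, was 522 and 210 against 194 to 446.

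Genes that accompanied the 9 within a library were ranked by their level in macrophages with at least 3 of them relative to macrophages with none, using the lowest of the 6 libraries. Among 8844 genes ranked, 35 exceeded a ratio of 2 in every library and 1146 a ratio of 1. Gas6, a bridging ligand for uptake of dying cells, led with 6.65 as its lowest ratio, followed by Rcn3 with 5.20, Npl with 4.47, Igfbp4 with 4.32, Nxpe5 with 4.03 and Maf with 4.00. Slc9a9 (3.66), Lyz1 (3.59), Slco2b1 (3.46) and the scavenger receptor Stab1 (3.37) completed the 10 highest. The ratio counts cells that share a library and free RNA, and it is given without a test. Macrophages with none of the genes numbered 394 and 294 in the both-KO libraries but only 24 to 46 in each of the others. A gene with 0 UMIs in them was given 0.5, so ratios and ranks of scarce genes can rest on few or no UMIs there.

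Companion genes came from 4 lists of related function. Summed counts of macrophages were fitted with edgeR's quasi-likelihood test for the both-KO term with a term for transplantation, over all 14538 genes tested. The p-values do not account for this contrast having been known from earlier results. At an adjusted p of 0.05, 1145 genes were lower (7.88%) and 1380 higher (9.49%). The 2525 genes in all became 1640 without intact KO, 1602 without intact WT, 1303 without KO-to-WT and 1307 without WT-to-KO. Among 46 companion genes tested, 9 were lower and 7 higher.

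Of 18 genes tested on the list of other resident-type macrophage genes, 6 fell and 2 rose, and the median log2 change was -0.27 against -0.01 over all genes. That median became -1.02 without KO-to-KO and -1.27 with Leiden clusters, and the 2 that rose became 5 without intact KO, 4 without intact WT and 1 without KO-to-WT. Gas6 was 33.3 CPM in intact KO and 39.8 in KO-to-KO, against 147 to 177 in the others, and fell by 1.96 on the log2 scale (SE 0.10, edgeR adjusted p = 0.00128). Igf1, the growth factor, was 14.3 and 8.35 CPM against 39.4 to 53.0 and fell by 2.06 (SE 0.18, edgeR adjusted p = 0.00318). Hpgd, which inactivates prostaglandins, was 2.30 and 1.14 CPM against 9.12 to 36.1 and fell by 3.81 (SE 0.55, edgeR adjusted p = 0.0120). The Hpgd call was lost without either intact library or without KO-to-KO. Stab1, Selenop and Ltc4s also fell, by 1.22, 1.05 and 1.24. Clec10a, a C-type lectin of macrophages and dendritic cells, rose by 1.35 (SE 0.21, edgeR adjusted p = 0.0120), from 6.51 to 7.64 CPM in the others to 10.9 and 21.8. Marco rose by 3.47 at levels no higher than 0.900 CPM. Genes of this list thus changed in both directions. Selenop, Ltc4s and Marco were chosen for mention after their values were seen.

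Of 10 transcription factors, 1 fell and 2 rose, with a median log2 change of 0.22, which became 0.036 without either intact library. Maf was 169 CPM in intact KO and 186 in KO-to-KO, against 464 to 620 in the others. It fell by 1.50 on the log2 scale (SE 0.12, edgeR adjusted p = 0.00236). Spi1, which encodes PU.1, stood between 379 and 402 CPM in all 6 libraries (log2 change 0.12, edgeR adjusted p = 0.297). Spi1 is named because its motif was searched in the promoters. Irf8 rose by 0.44 and Stat3 by 0.31, but the Irf8 call was lost when any library except WT-to-KO was left out, and the Stat3 call when any of the 6 was. Nr1h3, which encodes LXR alpha, had a log2 change of 0.59 and did not pass (edgeR adjusted p = 0.135).

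Of 10 genes for iron and haem, which Cd163-bearing macrophages handle, 1 fell and 2 rose, with a median log2 change of -0.01 that ran from -0.050 to 0.016 with a library left out. Slc40a1, the iron exporter ferroportin, fell by 2.29 (SE 0.29, edgeR adjusted p = 0.00701), from 3.49 to 7.20 CPM in the others to 0.400 and 1.51, and was chosen for mention after its values were seen. Slc11a1, the phagosomal metal transporter NRAMP1, rose by 0.99 (edgeR adjusted p = 0.00365). Ferritin heavy chain Fth1 rose by 0.69, a call that was lost without either intact library. Haem oxygenase Hmox1 was 214 and 379 CPM against 265 to 836 and did not pass (log2 change -0.44, edgeR adjusted p = 0.427), nor did transferrin receptor Tfrc (0.69, edgeR adjusted p = 0.0648).

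Of 8 genes tested for folate transport and use beside Folr2, 1 fell and 1 rose, with a median log2 change of 0.03 that turned negative without intact KO, intact WT, KO-to-KO or WT-to-KO. Slc46a1, the proton-coupled folate transporter, fell by 0.87 (edgeR adjusted p = 0.00614), from 7.03 to 8.77 CPM in the others to 3.47 and 4.42, and was likewise chosen after its values were seen. Ggh and Mthfd1 had log2 changes of 0.07 each and did not pass.

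In place of the both-KO term, separate terms for host and marrow genotype gave 0 genes past the threshold in edgeR for either, with 697 and 753 genes at an unadjusted p under 0.05. The same fit gave 0 companion genes in either direction. Both terms stood in one fit and were added without an interaction. A change present only where host and marrow are both KO counts there in part as residual spread. The 0 therefore does not show that host or marrow genotype has no effect.

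In monocytes, cells that the choice of the genes did not use, the 9 were mostly scarce. Lyve1 and Vsig4 had 0 UMIs in all 652 monocytes, Cd163 had 7 and Folr2 38. For Lyve1 and Vsig4 in KO-to-KO, which has the most monocyte UMIs, 0 UMIs allow a level of up to 1.60 CPM (3 UMIs of the total), and in KO-to-WT, which has the fewest, up to 8.41 CPM. F13a1, which classical monocytes are also known to express, was the member with the most monocyte UMIs, 1353 in all.

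F13a1 stood at 187 CPM in monocytes of intact KO, 539 in intact WT, 225 in KO-to-KO, 252 in KO-to-WT, 202 in WT-to-KO and 189 in WT-to-WT. Apart from intact WT these lay within 187 to 252 CPM, and the both-KO libraries were not set apart. In the same both-KO libraries the macrophage levels, 111 and 163 CPM, were below the monocyte levels, whereas in the 4 others macrophages stood above monocytes. The edgeR change with both KO in monocytes was -0.51 on the log2 scale (SE 0.34, adjusted p = 0.587). Leaving out KO-to-KO gave -1.52, past the threshold, and leaving out either intact library turned its sign, with 0.086 without intact KO and 0.084 without intact WT.

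Cbr2 in monocytes was 7.33 CPM in intact KO and 3.19 in KO-to-KO, against 16.8 in KO-to-WT, 17.0 in WT-to-KO, 20.4 in intact WT and 26.9 in WT-to-WT. The groups did not overlap, on 66 UMIs in all. It was the only 1 of 5 members tested that fell in monocytes (log2 change -2.11, SE 0.50, edgeR adjusted p = 0.0316), where 0.815% of 6994 genes fell. The 213 monocyte genes that changed in either direction became 91 without KO-to-KO. The call was lost without KO-to-KO and with a looser gate, and the gene was not tested without WT-to-WT, with a stricter gate or with DESeq2, which gave it no adjusted p. T cells, which should lack Cbr2, held at most 2.08 CPM in the both-KO libraries and 18.9 to 22.8 in the others, at median depths of 5173 to 8053 UMIs per cell, and the highest monocyte value, 26.9 CPM (exact Poisson interval 17.0 to 40.3), was not separated by counting error from the 20.5 CPM of T cells in WT-to-WT. The monocyte level of Cbr2 in the 4 other libraries therefore lay at or near this background and is not read as expression.

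Macrophage RNA was found in T cells of every library for Folr2, F13a1, Fcrls, Mrc1 and Pf4 as well. Lyve1, Cd163 and Vsig4 were at 0 in T cells of some libraries and reached at most 1.02, 0.105 and 0.951 CPM in T cells. The C1q chains reached 2.37% to 5.33% of the macrophage level there, and Folr2 2.61% to 6.43%. Fcrls in monocytes was 14.7 and 23.4 CPM in the both-KO libraries and 24.5 to 48.3 in the others, beside 9.37 and 3.05 in T cells of the former and 33.3 to 52.6 in T cells of the latter. Its log2 change of -0.86 did not pass (SE 0.34, edgeR adjusted p = 0.230). Counting libraries that do not overlap, Fcrls and Cbr2 were 2 of 7 members with both both-KO libraries below all others in monocytes, where 6.69% of genes were. Nothing is read from this count, since the libraries are those of the contrast that chose the genes.

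In monocytes Mrc1 exceeded the T cell level in all 6 libraries. Pf4 did so in 5 of 6, intact WT being the exception, but its counting intervals in monocytes and T cells overlapped in KO-to-WT and WT-to-KO. Mrc1 was 106 CPM in intact KO, 357 in intact WT, 77.2 in KO-to-KO, 44.9 in KO-to-WT, 136 in WT-to-KO and 155 in WT-to-WT, while T cells held 9.89 to 22.1. The both-KO libraries lay among the others (log2 change -1.05, SE 0.57, edgeR adjusted p = 0.530), although without KO-to-WT the change of -1.27 passed the threshold. Pf4 was 53.3 CPM in intact KO, 31.6 in intact WT, 59.1 in KO-to-KO, 101 in KO-to-WT, 85.1 in WT-to-KO and 166 in WT-to-WT. T cells held 10.4 to 91.1 CPM of Pf4, and the change did not pass (-0.47, SE 0.49, edgeR adjusted p = 0.773). It turned to 0.76 without KO-to-KO.

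Few monocytes carried several of the genes. Among those thinned to 5000 UMIs, at least 3 of the 9 were detected in 4 of 142 in intact KO, 3 of 46 in intact WT, 7 of 224 in KO-to-KO, 2 of 33 in KO-to-WT, 6 of 37 in WT-to-KO and 8 of 77 in WT-to-WT. Their shares, 2.82% to 16.2%, were below those of macrophages in every library. The mean number of the genes per monocyte was 0.746 in intact KO and 0.768 in KO-to-KO, against 1.29 to 1.42 in the others. T cells split in the same way, with 0.179 and 0.222 of the genes per cell against 0.749 to 0.851. The part of free RNA in the monocyte difference was not tested.

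**Figure D5:**
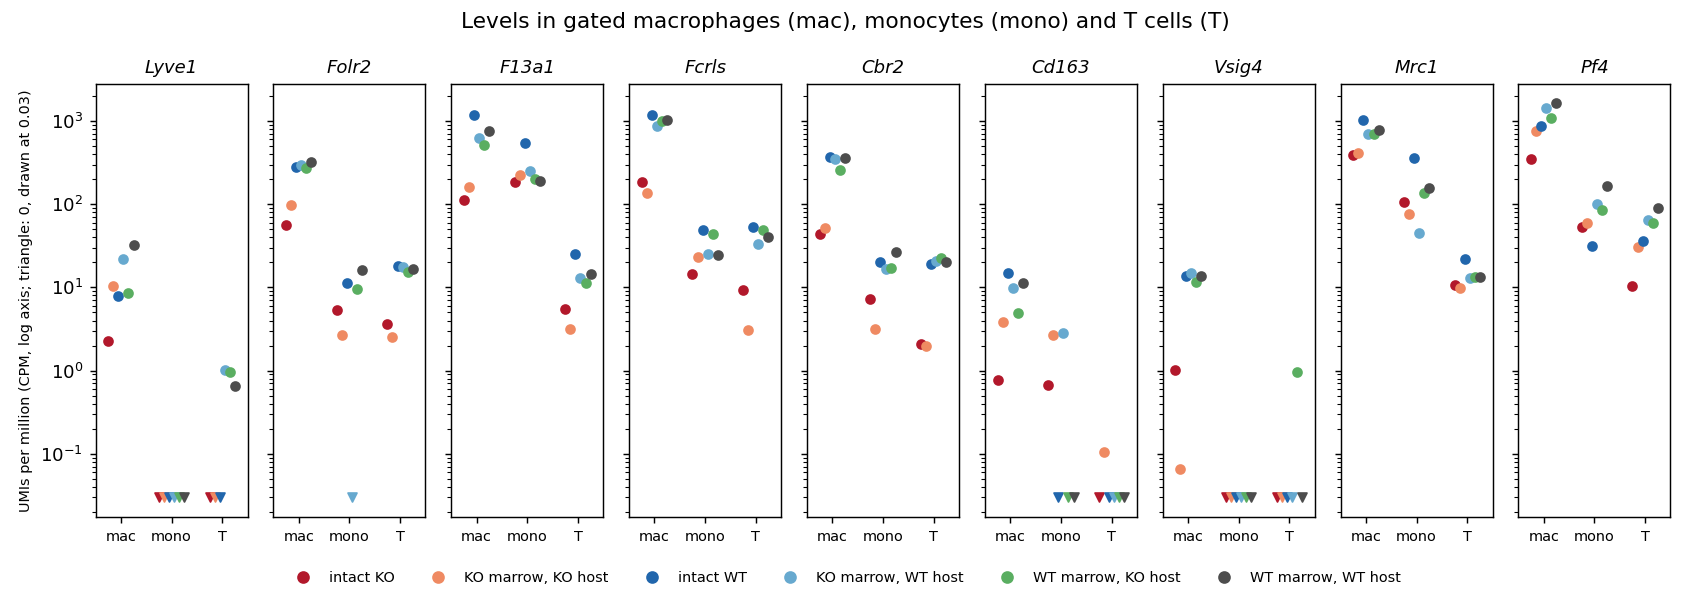
Level of each gene in macrophages, monocytes and T cells (vertical axis, CPM, log scale; triangles mark 0 and are drawn at 0.03), with a colour for each library. F13a1 and Mrc1 stand above the T cell level in the monocytes of every library, while the monocyte points of Folr2 and Cbr2 span a range that overlaps their T cell points.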

How the data were processed

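The 9 genes and all gene lists were chosen with earlier results of these data known. The deposited values are raw UMI counts per gene and cell, made by the authors with Cell Ranger 7.0.1 (intact libraries) or 6.1.1 (transplanted) against mm10, per the file headers and the submitters' processing notes. The sources used here do not say how intron reads were treated. Libraries hold 85616443 to 142779550 UMIs. Cells with at least 500 UMIs, 200 genes and at most 15% mitochondrial UMIs were kept, and the 6% with the highest Scrublet scores (scanpy 1.11.5) were removed per library, since its automatic threshold called 0 cells in the intact libraries.

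Macrophages and monocytes had at most 1 UMI over each of the lymphoid, dendritic and neutrophil lists and at most 2 over 4 epithelial and stromal genes. Gates used counts thinned to 2000 UMIs. T cells had at least 3 UMIs of Cd3d, Cd3e, Cd3g, Trac and Trbc2 and 0 of the second macrophage list. UMIs were summed per class and library and fitted with edgeR 4.0.16 (TMM, filterByExpr, robust quasi-likelihood, Benjamini-Hochberg adjustment over all genes, threshold 0.05) on 6 libraries, leaving 3 residual degrees of freedom. TMM moved the both-KO libraries by -0.06 (log2) against the rest in macrophages and 0.02 in monocytes. P-values reflect the spread between single libraries of different groups. The script was tested on simulated data, in which genes changed by 2 on the log2 scale were recovered in 100% (macrophages, 14149 genes) and 97.9% (monocytes, 6626 genes) of cases. False calls numbered 9 and 8. Only genes with a mean of at least 10 CPM were changed, with a common dispersion and no differences among the other libraries. Recovery of scarcer genes or smaller changes was thus not measured.

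Beside the 9 genes, those named are the largest fitted changes of each companion list, up to 4 genes whose mean reached 10 CPM, and the 10 highest co-detected genes with at least 50 thinned UMIs per library. Exceptions are marked. Some genes that these rules or lists hold are not reported here. Alternatives were DESeq2 1.42.0, no count filter, transplanted libraries alone, separate host and marrow terms, each library left out, no doublet removal, other gates, Leiden clusters (leidenalg 0.10.2) and other thinning depths.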

Additional observations from a re-analysis of the deposited data

How the results depend on the processing

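Each group had 1 library, so differences between mice were not measured, and the both-KO contrast rests on 2 libraries against 4. Monocytes were few, and free RNA limits what their low levels mean. No paired analysis was possible because each group holds 1 library and the labels give no replicate numbers. The count of 8 genes below all 4 other libraries in macrophages stayed at 8 with other C1q gates and without doublet removal. Leiden clusters made it 9 and moved the count at 2-fold between KO-to-KO and KO-to-WT from 5 to 8. No Leiden cluster was made up mostly of gated monocytes, so that alternative gave no monocyte value. The total of 2525 macrophage genes changed became 1657 in the transplanted libraries alone, where KO-to-KO was the only both-KO library. That total became 0 with either the host or the marrow term in place of both KO, and 1303 to 2670 with a library left out. These are totals of separate fits and do not count how many of the 2525 genes were found again. The 9 companion genes lower became 0 with the host term and 0 with the marrow term. The 213 monocyte genes changed became 139 with DESeq2, 513 without a count filter, 21 with the host term, 2 with the marrow term, 34 with the stricter gate and 91 to 257 with a library left out. The 1 member lower in monocytes became 0 with DESeq2, with the host term, with the marrow term, with the looser gate and with the stricter gate, and 0 to 2 with a library left out. Signs turned for Hmox1 (0.11 with the marrow term), for Mthfd1 (-0.091 in transplanted libraries alone, -0.099 with the host term, and -0.085 to 0.28 with a library left out, negative without intact KO or intact WT) and for Ggh (-0.0048 with the host term) in macrophages. In monocytes they turned for F13a1 (0.090 in transplanted libraries alone, and -1.52 to 0.086 with a library left out, positive without intact KO or intact WT), Fcrls (0.072 with the host term), Mrc1 (0.060 with the host term) and Pf4 (-1.03 to 0.76 with a library left out, positive without KO-to-KO). None of these values passed the threshold in the fit reported. The share of macrophages with at least 3 of the genes rose with depth, to 48.3% and 56.6% in the both-KO libraries and 93.0% to 96.0% in the others at 10000 UMIs, and was 14.8% and 20.2% against 62.4% to 76.1% at 2000 UMIs. The cause was not tested for any of the other moves.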
